A study of Rattus norvegicus with 20 samples.

Results

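Transcripts of amino acid transporters were followed in small vessels that had been dissected out of rat kidneys. They were chosen by name alone, as the genes of the solute carrier families Slc1, Slc3, Slc6, Slc7, Slc36, Slc38 and Slc43. The name pattern matched 51 rows of the table. Slc7a13, Slc6a6 and Slc6a12 were left out by the rule, which left 48 of 16672 rows with 47 gene names, because Slc6a20a has 2 rows. All 48 passed the filter on low values. The study had 20 libraries, 1 per rat, with 5 male Dahl salt-sensitive (SS) rats in each of 4 groups. SS rats, which become hypertensive on salt, were fed 0.3% NaCl (SS low salt) or 4.0% NaCl (SS high salt) for 2 weeks. SS rats labelled Ccl2-/- (called null here), which lack the chemokine gene Ccl2 by their label, were fed the same diets for the same time (null low salt and null high salt). All 4 groups thus share the SS background, and the tissue is the kidney microvasculature by its label. The labels give no age, no litter and no day of dissection, and name separate rats as replicates.

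The Slc families named above carry amino acids across the plasma membrane of every cell and across the membrane of lysosomes. In the kidney most of them are known from the proximal tubule, where brush border carriers take filtered amino acids out of the urine and basolateral exchangers pass them on to the blood. Some members need a partner: the heavy chains Slc3a1 and Slc3a2 bring light chains of the Slc7 family to the membrane, and Slc6a19 needs collectrin in the kidney. Several members carry other substrates, such as creatine (Slc6a8), serotonin (Slc6a4) or nucleobases (Slc43a3), and Slc7a6os is no transporter but the neighbour of Slc7a6.

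Promoters are shown for Slc3a1, Slc6a18 and Slc7a12, because a test for a difference in the salt effect between the genotypes passed for these 3 genes. That call was lost in 24 of 32 alternative settings for Slc3a1, in 16 of 32 for Slc6a18 and in 1 of 32 for Slc7a12. The windows hold 250 bases before and 50 after the annotated start, and come from RefSeq with the build GRCr8, which is not the build of the files (mRatBN7.2). Slc3a1 lies at chr6:15394700-15394999 on the minus strand, Slc6a18 at chr1:31436403-31436702 on the plus strand and Slc7a12 at chr2:88868054-88868353 on the minus strand. Capitals mark matches, found on either strand, to the core of the antioxidant response element (TGACNNNGC) in Slc3a1 and to the first part of the HNF1 consensus (GTTAATNAT) in Slc7a12. HNF1 is a transcription factor of the proximal tubule.
Slc3a1: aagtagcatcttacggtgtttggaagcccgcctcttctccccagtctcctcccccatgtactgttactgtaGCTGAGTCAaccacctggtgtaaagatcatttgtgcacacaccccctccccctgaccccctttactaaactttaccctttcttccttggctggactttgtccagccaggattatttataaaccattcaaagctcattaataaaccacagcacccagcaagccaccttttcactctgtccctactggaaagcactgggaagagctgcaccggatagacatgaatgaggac
Slc6a18: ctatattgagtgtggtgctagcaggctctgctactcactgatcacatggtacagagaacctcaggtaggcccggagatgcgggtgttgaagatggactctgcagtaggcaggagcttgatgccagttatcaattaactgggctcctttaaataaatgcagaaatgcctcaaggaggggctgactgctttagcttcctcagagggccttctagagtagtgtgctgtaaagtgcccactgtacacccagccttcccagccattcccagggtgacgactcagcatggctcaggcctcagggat
Slc7a12: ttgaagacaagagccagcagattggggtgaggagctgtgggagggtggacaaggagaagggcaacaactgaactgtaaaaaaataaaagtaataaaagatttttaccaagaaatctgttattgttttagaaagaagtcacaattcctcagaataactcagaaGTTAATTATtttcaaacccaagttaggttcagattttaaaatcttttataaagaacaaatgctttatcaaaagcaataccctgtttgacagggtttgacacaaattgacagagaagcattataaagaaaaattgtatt
The match in Slc3a1 begins 179 bases before the start and that in Slc7a12 begins 88 bases before it. RefSeq held 41 windows for 37 of the 47 names. The antioxidant core was found in 7 of the 41 windows (17.1%) and in 12.1% of all 33469 windows, and the HNF1 letters in 2 of the 41 (4.88%) and in 0.747% of all windows. Those 2 were Slc7a12 and Slc7a15, another light chain of the family. The HNF1 motif was added after seeing the data, so its share cannot be read as an excess. The core of the amino acid response element (TGATGNAA) was found in Slc1a4, Slc38a1 and Slc7a1, which is 7.32% of the windows against 3.98% of all. No motif overlapped another in the windows printed, and none of these matches was tested for binding.

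The libraries held 22.0 to 47.9 M reads, recovered from the deposited normalized counts. Ccl2 transcript was present in the libraries labelled null too, at 124 to 218 normalized counts on low salt and 77.5 to 128 on high salt, against 138 to 212 and 167 to 426 in SS rats, so the genotype rests on the labels. SS high salt rat 1 lay farthest out on the first and second principal components and null low salt rat 4 on the third. Of the 48 members, 20 had the lowest value of their group in that null low salt rat, and 22 in null high salt rat 5. Tubule transcripts were abundant in these vessel preparations. The 12 proximal tubule markers, all in the table, took 1.46% to 1.92% of the non-mitochondrial signal in SS low salt, 1.39% to 1.95% in SS high salt, 1.35% to 1.71% in null low salt and 1.57% to 1.86% in null high salt. The 8 markers of the loop and distal tubule that were in the table took 0.796% to 1.19%, 0.376% to 0.615%, 0.555% to 1.07% and 0.548% to 0.618%, in the same order. Endothelial markers, 7 of 8 listed, took 0.103% to 0.200% and the 7 smooth muscle markers 0.125% to 0.240% over all libraries. In such bulk RNA, fewer cells of a type and less RNA per cell cannot be told apart.

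**Figure D1:**
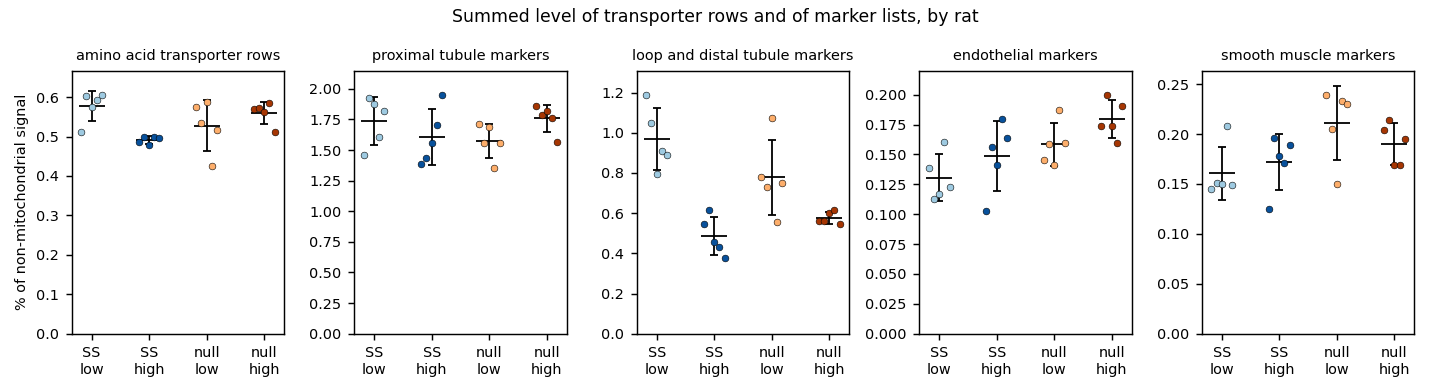
Summed level of the 48 transporter rows and of 4 marker lists as a percentage of the non-mitochondrial signal, with 1 point per rat and the mean ± SD of 5 rats per group. The transporter rows averaged 0.578% in SS low salt and 0.491% in SS high salt, and the loop and distal tubule markers were lower in every SS rat on high salt than in any SS rat on low salt.

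Together the 48 rows took 0.578% ± 0.039 (SD, n = 5) of the non-mitochondrial signal in SS low salt and 0.491% ± 0.0095 in SS high salt. The share was 0.528% ± 0.064 in null low salt and 0.560% ± 0.029 in null high salt. The 2 SS groups did not overlap, since the lowest low-salt rat was at 0.511% and the highest high-salt rat at 0.499%. Slc3a1 and Slc6a8 together held 69.2% of the difference between the SS means of the summed normalized counts. The mean log2 level over the 48 rows, in which each row counts equally, was 8.53 ± 0.11 in SS low salt and 8.55 ± 0.06 in SS high salt. Of the 48 rows, 18 averaged at least 1000 normalized counts, 19 at least 50 but less, and 11 under 50. The rest of the results give normalized counts, which are not corrected for gene length and do not rank genes by transcript number.

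Across 5 comparisons, 14 members passed the threshold (adjusted p at most 0.05, limma, adjusted over all genes tested) in at least 1 and 34 passed in none. Salt changed 9 members in SS rats, of which 4 rose and 5 fell. That is 18.8% of the members, beside 17.3% of all 16153 genes tested (9.52% higher and 7.73% lower). In rats labelled null 5 members changed, 4 up and 1 down, or 10.4% beside 5.52% of all genes (3.06% higher and 2.45% lower). The SS share is thus near that of all genes. The median log2 change of the members was -0.02 in SS rats and 0.08 in null rats, and that of all genes 0.00 in both. The difference between genotypes was called for 0 members on low salt, beside 0.557% of all genes (0.452% higher and 0.105% lower), and for 3 on high salt, or 6.25% beside 8.52% (3.70% higher and 4.82% lower). The interaction (the log2 change with salt in rats labelled null less the one in SS rats) was called for 3 members, all positive, or 6.25% beside 2.53% (0.774% positive and 1.76% negative). Comparisons between genotypes use the same libraries as the salt comparisons, so their values are not independent of them.

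**Figure D2:**
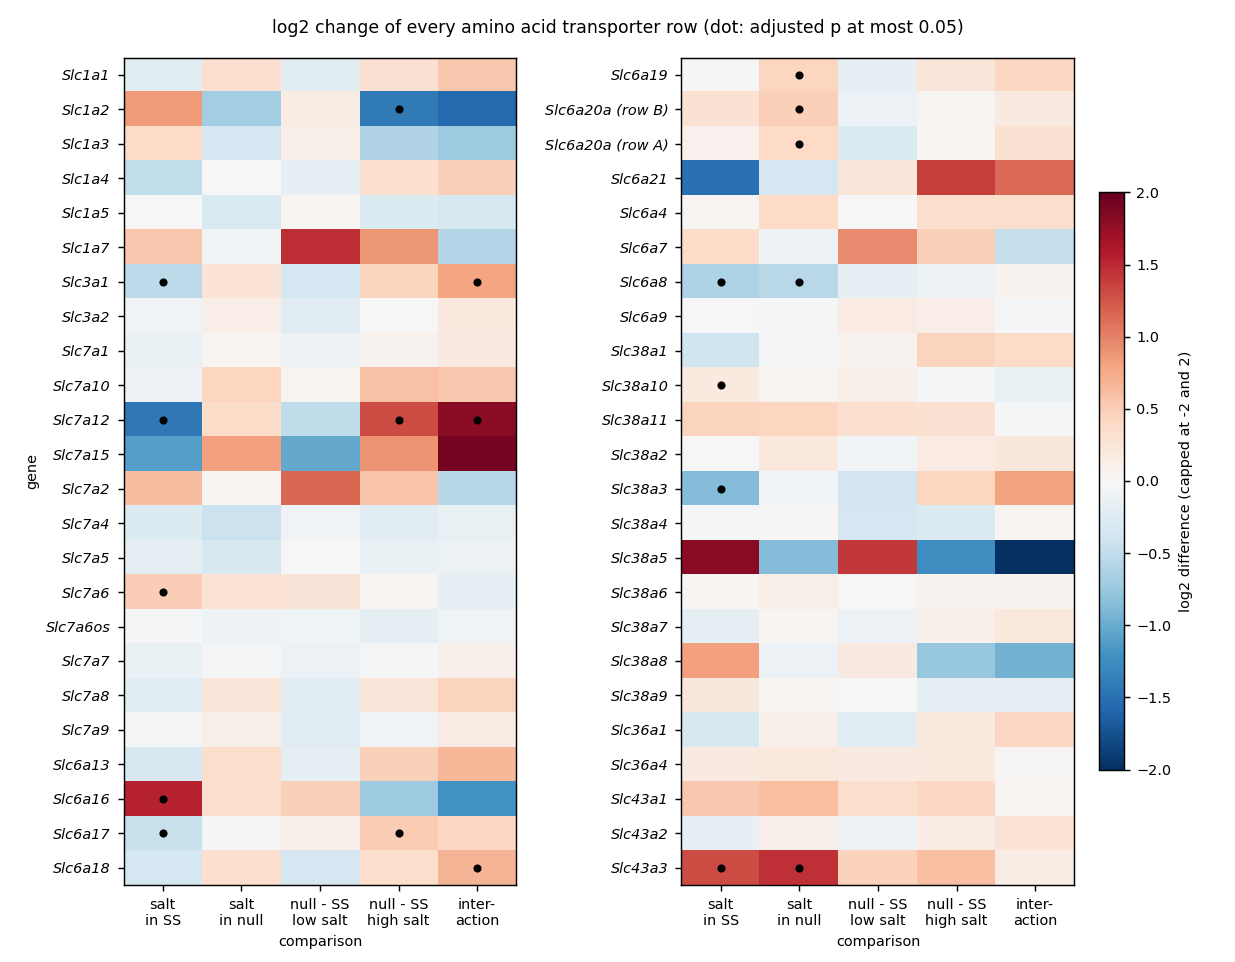
Log2 difference of each of the 48 rows in the 5 comparisons, in colour from -2 (blue) to 2 (red). Dots mark the 20 differences with an adjusted p of at most 0.05, of which 9 lie in the column for salt in SS rats and 0 in that for null against SS on low salt. Row A of Slc6a20a is that with the higher counts.

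Called members held few of the low genes: Slc1a2 and Slc6a16 averaged under 50. A scaling to the library total, which counts mitochondrially encoded transcripts (a mean of 30.2% of the signal in SS low salt and 13.3% in SS high salt), moved the median of all genes by 0.39 on the log2 scale in SS rats. On that scale 23 members rose and 1 fell in SS rats, which is 50% of the members beside 55.3% of all genes (54.3% higher and 1% lower). With the total taken without mitochondrially encoded genes, 5 rose and 5 fell (20.8% beside 17.8% of all genes). The values below are relative to the authors' normalization, in which the median of all genes did not move. With the mean log2 level of the tubule markers as a covariate, 1 of the 9 calls in SS rats was kept, and 166 in place of 2787 genes were called in the whole table. That level was 13.07 ± 0.12 in SS low salt, 12.79 ± 0.07 in SS high salt, 12.98 ± 0.12 in null low salt and 12.95 ± 0.06 in null high salt (log2, SD). In SS rats this level did not overlap between the diets (lowest low-salt rat 12.909, highest high-salt rat 12.866). On high salt every null rat (lowest 12.873) lay above every SS rat. The mitochondrial share, also used as a covariate, was 22.6% to 42.5% in SS low salt and 6.90% to 20.4% in SS high salt. Where a covariate separates the groups compared, a fit cannot tell it well apart from them, so a call lost there does not show its part. In null rats the tubule level overlapped between the diets (12.81 to 13.14 on low salt, 12.87 to 13.02 on high salt). With that covariate 1191 in place of 891 genes were called with salt in null rats, and no member call was lost. The part of tubule content in the results below was not tested.

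The Slc43 family, carriers that work without sodium, held the member that rose most clearly. Slc43a3 carries nucleobases rather than amino acids. Its normalized counts in rats 1 to 5 were 278, 337, 296, 407 and 458 in SS low salt and 361, 1004, 1004, 1238 and 1075 in SS high salt. In null rats they were 626, 458, 516, 358 and 470 on low salt and 1293, 1513, 1113, 1409 and 1298 on high salt. All high-salt rats but SS rat 1 lay above every low-salt rat. The log2 change was 1.31 ± 0.23 (SE) in SS rats (2.48-fold, adjusted p = 6.2e-04) and 1.46 ± 0.23 in null rats (2.76-fold, adjusted p = 0.0015). The 2 changes differed by 0.15 ± 0.33, which did not pass (adjusted p = 0.85). Both were called under all alternatives tried, and without SS high salt rat 1 the SS change was 1.62. Markers of some other cells moved with salt beside it. The 5 fibroblast markers took 0.0285% to 0.0426% of the non-mitochondrial signal in SS low salt and 0.0651% to 0.104% in SS high salt, and 0.0503% to 0.0661% and 0.0607% to 0.0901% in null rats, and 5 rose in SS rats and 1 in null rats. The 4 markers of lymphatic endothelium took 0.00425% to 0.00581% in SS low salt and 0.00843% to 0.0143% in SS high salt, and 0.00669% to 0.00851% and 0.00969% to 0.0125% in null rats, and 2 rose in each genotype. Of the injured tubule markers, 4 of 5 were in the table, at 0.0113% to 0.0145% and 0.0169% to 0.0309% in SS rats and 0.00988% to 0.0164% and 0.00913% to 0.0116% in null rats. Of those 4, 3 rose in SS rats, and 2 fell in null rats. Of the 7 endothelial markers tested, 1 rose and 1 fell in SS rats, and 0 rose and 1 fell in null rats. They averaged 0.130% on low and 0.149% on high salt in SS rats, and 0.158% and 0.180% in null rats. Of the 7 macrophage markers tested, 4 rose in SS rats and 0 in null rats. The part of these cells in the change of Slc43a3 was not tested. Slc43a1, a carrier of large neutral amino acids, was at 160 ± 22.7 and 247 ± 87.1 in SS rats and at 205 ± 32.5 and 313 ± 59.3 in null rats, on low and high salt. Neither difference passed (0.54 ± 0.21, adjusted p = 0.086, and 0.60 ± 0.21, adjusted p = 0.095), though the null groups did not overlap. Slc43a2, a close relative of Slc43a1, averaged 7442 ± 898, 6609 ± 705, 6813 ± 450 and 7289 ± 591 in SS low, SS high, null low and null high salt, and passed in no comparison.

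Slc6a8, the sodium and chloride dependent creatine transporter, fell with salt in both genotypes. In SS rats its values were 18926, 25227, 21550, 18076 and 21868 on low salt and 19055, 14155, 11868, 11477 and 12871 on high salt. In null rats they were 21104, 19936, 16720, 16308 and 18934 on low salt and 13825, 11785, 12076, 14908 and 11077 on high salt. The null groups did not overlap, and in SS rats only rat 1 on high salt reached the low-salt range. The log2 change was -0.62 ± 0.13 in SS rats (adjusted p = 0.0019) and -0.55 ± 0.13 in null rats (adjusted p = 0.016), and the 2 differed by 0.07 ± 0.18 (adjusted p = 0.87). The null call held under all alternatives. The SS change was -0.74 without rat 1 and lost its call with the tubule covariate (-0.46, adjusted p = 0.26), with the mitochondrial share as a covariate (-0.50, adjusted p = 0.11) and when scaled to the library total (-0.23, adjusted p = 0.13). Gatm, the first enzyme of creatine synthesis, fell as well, by 1.38 ± 0.24 on the log2 scale in SS rats (adjusted p = 4.7e-04) and by 1.07 ± 0.24 in null rats (adjusted p = 0.013). Gamt, the second enzyme, chosen for its role after its values were seen, differed by -0.29 ± 0.15 and -0.09 ± 0.15 and passed in neither.

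**Figure D3:**
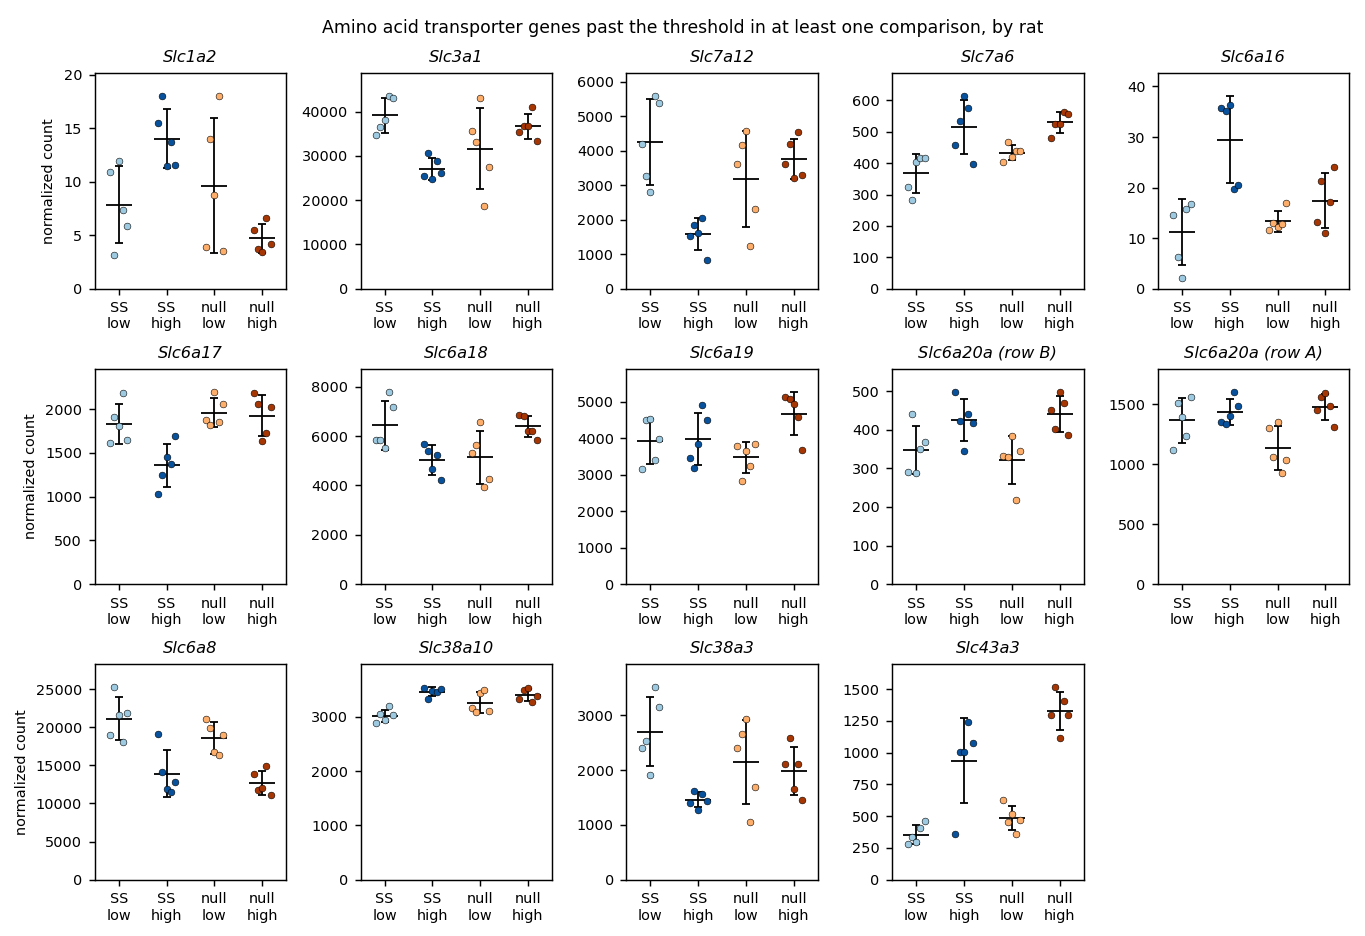
Normalized counts of the 14 members called in at least 1 comparison, with 1 point per rat and the mean ± SD of 5 rats in each group. Slc43a3 is higher and Slc6a8 lower on high salt in both genotypes, while Slc7a12 is low in all 5 SS rats on high salt and not in the null rats on high salt. Row A of Slc6a20a is that with the higher counts.

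The heavy chain Slc3a1 and the light chain Slc7a12 fell with salt in SS rats and not in rats labelled null, and the interaction passed. The difference of Slc3a1 between null and SS rats on the same diet did not pass on low or high salt. Slc3a1 joins Slc7a9 in the brush border to take up cystine and cationic amino acids. Its values were 34652, 36590, 38029, 43467 and 43040 in SS low salt and 25439, 30583, 24716, 28764 and 26066 in SS high salt. In null rats they were 35717, 33123, 43097, 18622 and 27519 on low salt and 35507, 36821, 36683, 40991 and 33444 on high salt. The SS groups did not overlap, and the null low-salt rats spread from below the SS high-salt range into the SS low-salt range. The log2 change was -0.53 ± 0.15 in SS rats (adjusted p = 0.019) and 0.27 ± 0.15 in null rats (adjusted p = 0.30), and the interaction was 0.80 ± 0.21 (adjusted p = 0.049). The interaction was lost without 17 of the 20 rats in turn, with an adjusted p of up to 0.095 (all but SS high salt rat 4 and null low salt rats 1 and 3). Without null low salt rat 4 it was 0.62 (adjusted p = 0.055), and without both libraries that lie apart 0.60 (adjusted p = 0.073). It was also lost with edgeR (0.74, adjusted p = 0.055), scaled to the library total with or without mitochondrial genes (0.53 and 0.72, adjusted p = 0.15 and 0.066), and with the tubule or mitochondrial covariate (0.51 and 0.81, adjusted p = 0.65 and 0.094). The fall in SS rats held without any 1 rat, and was lost when scaled to the library total (-0.14, adjusted p = 0.48) and with the tubule or mitochondrial covariate (-0.21 and -0.56, adjusted p = 0.73 and 0.15). Reads of Slc3a1 could in part come from Prepl, which overlaps it in RefSeq. Prepl averaged 1096 normalized counts in SS low salt and 1007 in SS high salt, where Slc3a1 averaged 39156 and 27114. The log2 difference of Prepl with salt in SS rats was -0.13 ± 0.08 (adjusted p = 0.31).

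Slc7a12, a light chain that carries small neutral amino acids in rodents, had values of 4207, 3259, 2790, 5579 and 5387 in SS low salt and 1534, 1859, 1627, 2062 and 834 in SS high salt. In null rats they were 3619, 4168, 4577, 1230 and 2321 on low salt and 3602, 4183, 3196, 4539 and 3309 on high salt. All 5 SS rats on high salt lay below all SS rats on low salt and below all null rats on high salt. The log2 change with salt was -1.43 ± 0.28 in SS rats (2.7-fold lower, adjusted p = 0.0017) and 0.37 ± 0.28 in null rats (adjusted p = 0.46). The interaction was 1.81 ± 0.40 (adjusted p = 0.021), and on high salt null rats were above SS rats by 1.30 ± 0.28 (adjusted p = 0.0093). All 3 calls held without any 1 rat, the interaction at 1.5 without null low salt rat 4. They were lost with the tubule covariate, at similar sizes (-1.32, adjusted p = 0.16; 1.71, adjusted p = 0.32; and 1.23, adjusted p = 0.058).

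Among the other light chains Slc7a6 alone was called. Slc7a9, the partner of Slc3a1, averaged 6335 ± 970 in SS low salt, 6202 ± 497 in SS high salt, 5429 ± 633 in null low salt and 5910 ± 563 in null high salt, with no difference past the threshold. Slc7a7, the basolateral exchanger of cationic amino acids, was at 13348 ± 2280, 12175 ± 1683, 12138 ± 833 and 11999 ± 1304, in the same order. Its heavy chain Slc3a2 was at 14223 ± 2053, 13544 ± 1261, 12180 ± 909 and 13416 ± 1267. Neither passed in any comparison, nor did Slc7a8, a basolateral carrier of neutral amino acids, or Slc7a5, its relative in dividing cells. Slc7a6, another partner of Slc3a2, was at 324, 281, 404, 416 and 415 in SS low salt and at 457, 534, 613, 575 and 398 in SS high salt. It rose by 0.49 ± 0.12 (adjusted p = 0.0071), with SS high salt rat 5 inside the low-salt range. In null rats it went from 404 to 467 on low salt to 479 to 562 on high salt, without overlap, a log2 difference of 0.29 ± 0.12 that did not pass (adjusted p = 0.14). The SS call was lost in a fit of the SS groups alone (adjusted p = 0.052), with the tubule covariate (0.33) and with the mitochondrial covariate (0.20). The ratio of heavy to light chain was compared for 5 known pairs in 4 comparisons each. Slc3a1 over Slc7a9 was lower in SS high salt than in SS low salt by 0.51 on the log2 scale (2.13 ± 0.19 against 2.64 ± 0.26, n = 5, two-sided exact permutation p = 0.024). It was 2.64 ± 0.12 in null high salt, which is above SS high salt by 0.51 (exact permutation p = 0.0079, the lowest value possible for groups of 5). After adjustment over the 20 ratio tests none passed, the lowest adjusted exact permutation p being 0.16.

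Brush border carriers of neutral amino acids in the Slc6 family were called in null rats or in the interaction. Slc6a18, the carrier of glycine and other neutral amino acids, was at 5837, 5837, 5504, 7790 and 7175 in SS low salt and at 5696, 5382, 4667, 5251 and 4202 in SS high salt. In null rats it was at 5311, 5643, 6578, 3921 and 4269 on low salt and at 6862, 6817, 6209, 6216 and 5840 on high salt. On high salt every null rat lay above every SS rat, though the difference between genotypes on that diet did not pass. The salt difference was -0.35 ± 0.12 in SS rats (adjusted p = 0.055) and 0.34 ± 0.12 in null rats (adjusted p = 0.10). Neither passed alone, while the interaction did at 0.68 ± 0.17 (adjusted p = 0.038). It was lost without 11 of the 20 rats in turn: SS low salt rats 4 and 5, SS high salt rats 2, 3 and 5, null low salt rats 4 and 5 and null high salt rats 1 to 4. In those 20 fits its size was 0.59 to 0.78, with an adjusted p of up to 0.078. It was also lost without both libraries that lie apart (0.64, adjusted p = 0.053), scaled to the library total with or without mitochondrial genes (0.41 and 0.60, adjusted p = 0.22 and 0.064), and with the tubule covariate (0.66, adjusted p = 0.40).

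Slc6a19, the main brush border carrier of neutral amino acids and the neighbour of Slc6a18 on chromosome 1, rose with salt in null rats. Its values there were 3792, 2825, 3647, 3231 and 3848 on low salt and 5111, 5062, 4935, 4574 and 3681 on high salt. Rat 5 on high salt stayed within the low-salt range. The log2 change was 0.43 ± 0.13 (adjusted p = 0.048), while SS rats averaged 3911 ± 623 and 3977 ± 715, a difference of 0.02 ± 0.13 (adjusted p = 0.93). The interaction did not pass (0.41 ± 0.18, adjusted p = 0.23). Slc6a20a, the carrier of proline and other imino acids, has the near copy Slc6a20b beside it, so its reads are uncertain between the copies. Its row with the higher counts was at 1306, 1060, 1354, 928 and 1035 in null low salt and at 1451, 1559, 1595, 1485 and 1314 in null high salt (0.39 ± 0.10, adjusted p = 0.031). The other row was at 332, 329, 384, 219 and 344 and at 452, 402, 498, 470 and 385 (0.47 ± 0.14, adjusted p = 0.0496), with the lowest high-salt rat just above the highest low-salt rat. In SS rats the 2 rows differed by 0.08 ± 0.10 and 0.30 ± 0.14 and did not pass.

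These 3 calls were lost without single rats. Without null low salt rat 4 the log2 changes were 0.41 for Slc6a19, 0.32 for the first row of Slc6a20a and 0.34 for the other, with adjusted p of 0.097, 0.079 and 0.13. That rat also had the lowest proximal tubule share of the 20, at 1.35%. Slc6a19 was lost in 11 of the 20 fits that left out 1 rat: each null low salt rat, null high salt rats 1 to 4, SS low salt rat 5 and SS high salt rat 3. The first row of Slc6a20a was lost in 7, without null low salt rats 2, 4 or 5 or null high salt rats 1 to 4. The other row was lost in 14, which are all null rats but low salt rat 3, SS low salt rats 4 and 5 and SS high salt rats 2, 4 and 5. The highest adjusted p was 0.11, 0.079 and 0.13. All 3 were lost without both libraries that lie apart (adjusted p = 0.069, 0.057 and 0.087), and the other row also with a pseudocount of 8, with no filter and when scaled to the total without mitochondrial genes (adjusted p = 0.0503, 0.0506 and 0.0513). Of the 12 proximal tubule markers, held in 13 rows, 1 rose with salt in null rats (Slc5a12, a lactate carrier, 0.63 ± 0.18, adjusted p = 0.039) and 12 of 13 rows lay above 0. In SS rats 3 rows fell and 11 of 13 lay below 0. With the tubule covariate, and with the mitochondrial covariate, the 3 calls of Slc6a19 and Slc6a20a in null rats were kept. Beyond these fits, the part of these markers in the changes of the brush border carriers was not tested.

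**Figure D4:**
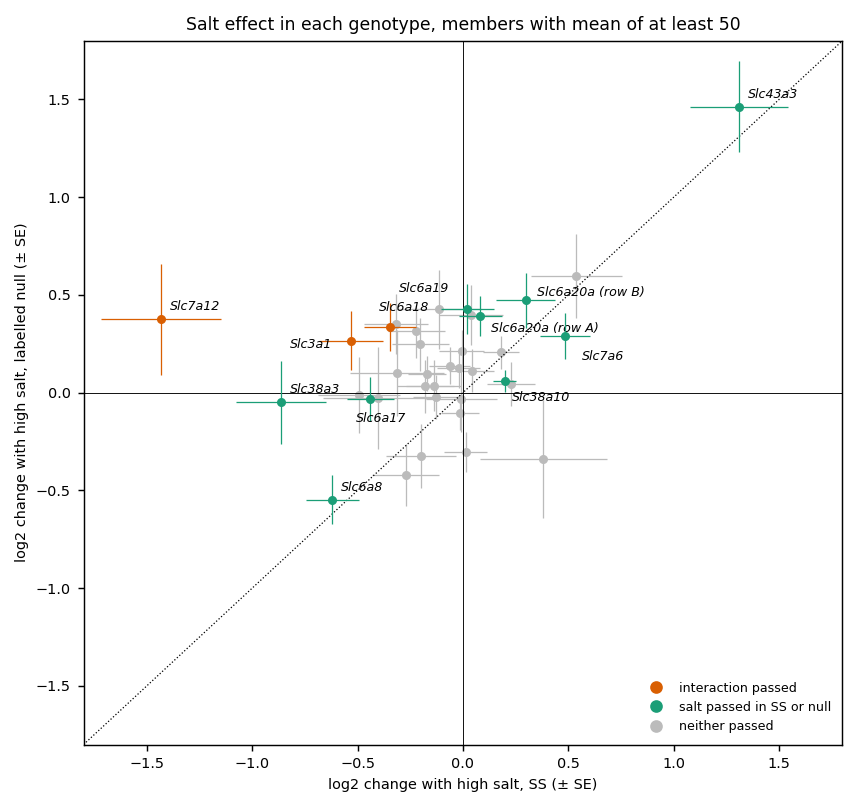
Log2 change with high salt in SS rats (horizontal) against that in rats labelled null (vertical), each ± SE, for the members with a mean of at least 50 normalized counts. Slc43a3 and Slc6a8 lie near the dotted line of equal change, while Slc7a12, Slc3a1 and Slc6a18 lie above it, with interactions of 1.81, 0.80 and 0.68. Row A of Slc6a20a is that with the higher counts.

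Among other Slc6 members, Slc6a17, a vesicular carrier of neutral amino acids known from the brain, was at 1609, 1910, 1807, 2184 and 1644 in SS low salt and at 1030, 1251, 1450, 1372 and 1696 in SS high salt. It fell by 0.44 ± 0.11 on the log2 scale (adjusted p = 0.0098), with only rat 5 on high salt inside the low-salt range. Null rats on high salt, at 2179, 2053, 1632, 1729 and 2023, were above SS rats on the same diet by 0.51 ± 0.11 (adjusted p = 0.0097). The interaction did not pass (0.41 ± 0.16, adjusted p = 0.18). The fall in SS rats was lost when scaled to the library total (-0.05, adjusted p = 0.74) and with the tubule or mitochondrial covariate (-0.36 and -0.27). The difference between genotypes was lost with the tubule covariate alone (0.47, adjusted p = 0.066). Slc6a16, a relative with no settled substrate, was at 14.5, 6.35, 2.17, 15.8 and 16.8 in SS low salt and at 35.7, 35.2, 36.3, 19.8 and 20.5 in SS high salt, without overlap. It rose by 1.53 ± 0.39 (adjusted p = 0.0093). The call was lost in a fit of the SS groups alone (adjusted p = 0.054) and with the tubule or mitochondrial covariate (0.44 and 1.75, adjusted p = 0.77 and 0.084). Slc6a16 overlaps Cd37, a gene of leukocytes, in RefSeq, and Cd37 rose by 0.76 ± 0.16 in SS rats (adjusted p = 0.0022), from a mean of 595 to 984. The counting is not known to have used strand, so reads of Slc6a16 cannot be told apart from those of Cd37 where they overlap. The T cell markers, 6 of 6 in the table, took 0.00261% of the signal in SS low salt and 0.00502% in SS high salt, and all 6 rose. The B cell markers, 3 of 4 in the table, took 0.000315% and 0.000316%. Of these, 2 were tested, both lay below 0 and 0 were called. The macrophage markers, 7 of 8, took 0.0405% and 0.0578%, and 4 rose. Slc6a13, a carrier of GABA, betaine and taurine, had a difference of 0.48 ± 0.15 between genotypes on high salt that did not pass (adjusted p = 0.054). Slc6a4, Slc6a7, Slc6a9 and Slc6a21 passed in no comparison.

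In the Slc38 family of sodium coupled neutral carriers, 1 of 11 members fell and 1 rose in SS rats, and none was called in null rats. Slc38a3 takes glutamine into proximal tubule cells from the blood side. Its values were 2399, 2526, 1914, 3512 and 3145 in SS low salt and 1395, 1611, 1275, 1570 and 1434 in SS high salt, without overlap. It fell by 0.86 ± 0.21 (1.82-fold lower, adjusted p = 0.0079). In null rats it was at 2413, 2660, 2931, 1048 and 1686 on low salt and at 2115, 2587, 1662, 2109 and 1458 on high salt, so the groups overlapped (-0.05 ± 0.21, adjusted p = 0.92). The interaction was 0.81 ± 0.30 and did not pass (adjusted p = 0.15). The fall in SS rats was lost when scaled to the library total (-0.47, adjusted p = 0.062) and with the tubule or mitochondrial covariate (-0.66 and -0.76). Slc38a10, a glutamate and glutamine carrier, had the smallest change called. It was at 2886, 3042, 2942, 3190 and 3026 in SS low salt and at 3535, 3332, 3479, 3446 and 3512 in SS high salt, without overlap, a rise of 0.20 ± 0.06 (adjusted p = 0.016). That call was lost in a fit of the SS groups alone (adjusted p = 0.074) and with the tubule or mitochondrial covariate (0.18 and 0.14). Slc38a2, which cells raise when amino acids run short, passed in no comparison. It averaged 4782 ± 288 in SS low salt, 4840 ± 923 in SS high salt, 4613 ± 410 in null low salt and 5342 ± 269 in null high salt. Its neighbours on chromosome 7, Slc38a1 and Slc38a4, did not pass either, nor did Slc38a9, the arginine sensor of the lysosome, Slc38a5, Slc38a6, Slc38a7, Slc38a8 or Slc38a11. The 2 SS groups of Slc38a8 did not overlap (14.8 to 33.9 on low salt, 36.8 to 54.4 on high salt), with a difference of 0.82 ± 0.34 (adjusted p = 0.10).

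In the Slc1 family of glutamate and small neutral carriers, Slc1a2 was called once. This glial glutamate carrier was at 15.5, 18, 11.5, 13.7 and 11.5 in SS high salt and at 5.51, 3.72, 3.46, 6.6 and 4.19 in null high salt, without overlap. The null rats were lower by a log2 difference of -1.41 ± 0.41 (adjusted p = 0.038). The call was lost without any of the 5 null high salt rats or SS high salt rats 1, 2 or 3, with an adjusted p of up to 0.087, and the gene had only 185 reads over all libraries. It was also lost without both libraries that lie apart (-1.37, adjusted p = 0.062), scaled to the library total (-1.43, adjusted p = 0.076) and with the tubule covariate (-1.03, adjusted p = 0.23). Slc1a1, the glutamate carrier of the proximal tubule, averaged 1561 ± 274 and 1332 ± 177 in SS rats and 1338 ± 252 and 1646 ± 211 in null rats, on low and high salt, and passed in no comparison. Slc1a5, which carries glutamine, had a difference of -0.30 ± 0.10 with salt in null rats (adjusted p = 0.074). Slc1a3, Slc1a4 and Slc1a7 did not pass. In the proton coupled Slc36 family, Slc36a4 was at 588 to 749 in SS low salt, 638 to 854 in SS high salt, 705 to 811 in null low salt and 844 to 975 in null high salt. The null groups did not overlap, yet the difference of 0.21 ± 0.09 did not pass (adjusted p = 0.15). Slc36a1, a lysosomal and brush border carrier of small amino acids, did not pass in any comparison. The remaining Slc7 rows (Slc7a1, Slc7a2, Slc7a4, Slc7a10, Slc7a15 and Slc7a6os) did not pass either.

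Groups that did not overlap were counted apart from the test. In SS rats 6 members had separate groups on low and high salt (12.5%, beside 9.32% of all genes), and in null rats 6 (12.5%, beside 10.8%). Between genotypes there was 1 on low salt (2.08%, beside 3.69%) and 4 on high salt (8.33%, beside 8.41%). The 1 on low salt was Slc7a2, a carrier of cationic amino acids, at 6.52 to 17.6 in SS rats and 22.4 to 52.0 in null rats (1.15 ± 0.33, adjusted p = 0.084). For the genotypes on low salt, limma called 0 members (beside 0.557% of all genes), edgeR 0 (beside 0.384%) and DESeq2 2 (4.17%, beside 3.44%). Scaled to the library total, 8 members were higher in null rats on low salt (16.7%, beside 25.1% of all genes called), where the median of all genes moved by 0.27. The direction of the calls on high salt was 2 higher and 1 lower in the main scaling. Scaled to the library total it was 2 higher and 0 lower (beside 1.64% and 2.02% of all genes). The interaction calls were 3 positive in the main scaling. Scaled to the library total they were 1 positive and 1 negative (beside 0.179% and 6.5% of all genes).

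Genes that work with the transporters were counted by direction as well. Of 34 tested genes of amino acid metabolism, 2 rose and 10 fell with salt in SS rats, and 2 rose and 3 fell in null rats. For these lists too the counts stand beside 9.52% of all genes higher and 7.73% lower with salt in SS rats, and 3.06% and 2.45% in null rats. The median log2 change over the 34 was -0.22 and 0.01. Prodh, which breaks down proline, rose by 0.82 ± 0.13 in SS rats (adjusted p = 2.7e-04) and 0.97 ± 0.13 in null rats (adjusted p = 4.7e-04). In SS rats the glutathione synthase Gss (-0.65 ± 0.12) and Odc1, the first enzyme of polyamine synthesis (-0.86 ± 0.18), fell beside Gatm. The interaction was called for Gclc, the limiting enzyme of glutathione synthesis (1.46 ± 0.38, adjusted p = 0.042), for Cth, which makes cysteine (0.90 ± 0.22, adjusted p = 0.030), and for Bcat1, which transfers the amino group of branched chain amino acids (-1.81 ± 0.39, adjusted p = 0.017). Gclc averaged 46345 normalized counts in SS low salt, 21140 in SS high salt, 38572 in null low salt and 43810 in null high salt.

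Of 16 tested genes of peptide and mitochondrial carriers and transporter partners, 1 rose and 4 fell in SS rats and 1 rose in null rats. That 1 was Slc15a1, a carrier of di- and tripeptides, which rose by 1.33 ± 0.20 in null rats (adjusted p = 0.0011), with an interaction of 1.06 ± 0.28 (adjusted p = 0.049). Cltrn, the collectrin that Slc6a19 needs in the kidney, was looked up after the values were seen and differed by 0.07 ± 0.13 between genotypes on high salt (adjusted p = 0.76). With salt in null rats, the comparison in which Slc6a19 was called, Cltrn was not called. In the list of the amino acid response driven by ATF4, with 26 tested genes, 2 rose and 3 fell in SS rats and 1 rose in null rats. On high salt 5 of the 26 were lower in null than in SS rats, beside 4.82% of all genes, among them Eif4ebp1, a brake on translation (-0.72 ± 0.14, adjusted p = 0.0050), and Psph, which completes serine synthesis (-0.76 ± 0.16, adjusted p = 0.00855). In the list of amino acid sensing and mTORC1, with 25 tested genes, 2 fell in SS rats, Lamtor5 by 0.45 ± 0.09 and Rragc by 0.24 ± 0.07 (adjusted p = 0.0017 and 0.016), and no call was made in the other comparisons.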

How the data were processed

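RNA of dissected kidney microvessels was extracted with TRIzol, treated with DNase and selected for poly A, per the labels. The tools named in the submitters' processing notes are Trim Galore, MultiQC, STAR 2.7.11b, featureCounts 2.0.6 of Subread and DESeq2 1.44, with the build mRatBN7.2. The labels do not state their settings or whether counting used strand. The values deposited by the authors are a signal for each gene and rat, namely read counts scaled by 1 factor per library (normalized counts). Whole reads were recovered for 100% of values within 1e-06. The libraries held 22.0 to 47.9 M recovered reads, and every listed gene had at least 100 reads over all libraries, so rarer transcripts are not covered.

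Genes with at least 10 normalized counts in at least 5 libraries (16153) were tested with limma 3.58.1 in R 4.3.3 on log2(value + 1), with all 20 libraries and 4 group means in 1 fit and a mean trend. P-values were adjusted by Benjamini-Hochberg over all genes tested, with a threshold of 0.05, and each adjusted p of a gene is from this fit. Fold changes on the log2(value + 1) scale understate changes of low genes. Errors are SDs for levels and standard errors for log2 changes. Ratios of subunits were compared by two-sided exact permutation tests. The choices varied were the pseudocount (0.5 or 8), the filter (none, or 100 normalized counts), 2 scalings to the library total, a fit of the compared groups alone, a block for the rat number, and covariates for the mitochondrial share or for tubule content (the mean log2 level of the proximal, loop and distal, and collecting duct markers). Each rat was also left out in turn. Recovered reads were also tested with edgeR 4.0.16 (quasi-likelihood, TMM), which called 2777 genes with salt in SS rats where limma called 2787, and with DESeq2 1.42.0. Leaving out the 2 libraries that lie apart, and the HNF1 motif, were added after seeing the data.

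Members called in at least 1 comparison and the row of each family with the highest counts are given with their values, and of every other list up to 4 called genes of smallest p per comparison. Of the genes picked, 1 is not reported here. The members and lists were chosen with earlier results of these data known. Promoters are from RefSeq, and 10 member names without an entry there are not shown.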

Additional observations from a re-analysis of the deposited data

Results flagged for a closer look

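In 3 of the 76 groups of 5 rats formed by 19 members described in detail, 1 rat lay far from the other 4, by a gap over 0.71 of the range (Dixon's limit for 5 values), which chance gives in about 1 of 20 groups. Slc43a3 was at 361 in SS high salt rat 1, against 1004 to 1238 in the other 4, a gap of 0.733 of the range. Slc1a1 was at 907 in null low salt rat 4, against 1348 to 1520 (0.720 of the range). Slc6a16 was at 16.9 in null low salt rat 5, against 11.6 to 13.1 (0.717 of the range). The first and second of these rats are also the libraries that lie farthest out on the principal components.

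The effect of salt differed between the genotypes, by the interaction term, for 3 members. Slc7a12 had an interaction of 1.81 ± 0.40 (log2, adjusted p = 0.021), Slc3a1 of 0.80 ± 0.21 (adjusted p = 0.049) and Slc6a18 of 0.68 ± 0.17 (adjusted p = 0.038). In all 3 the mean was lower on high salt in SS rats and higher on high salt in null rats. The SS difference passed for Slc7a12 and Slc3a1, and the null difference for none of them. Null low salt rat 4 had the lowest value of its group in each of the 3, and without it Slc7a12 alone passed.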

How the results depend on the processing

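No called difference of a named member changed direction under any alternative in which it was tested. Slc43a3 in both genotypes and Slc6a8 in null rats were called under all 33 alternatives. A filter of 100 left 35 members, without Slc1a2 and Slc6a16. The number of members called is given below, with the number of all genes called at the same setting in brackets. With salt in SS rats (9 members, 2787 genes) it was 24 when scaled to the library total (8944). It was 1 with the tubule score (166) and 2 with the mitochondrial share as a covariate (823). Neither covariate overlapped between the SS diets, so these fits cannot tell it well apart from diet. With salt in null rats (5 members, 891 genes) it was 3 without both libraries that lie apart (1127). Between genotypes on low salt (0 members, 90 genes) it was 8 scaled to the library total (4051), 1 with the mitochondrial share (356) and 2 with DESeq2 (555). On high salt (3 members, 1376 genes) it was 6 in a fit of the compared groups alone (996), 6 with DESeq2 (2030) and 0 with the tubule score (421). The interaction count (3 members, 409 genes) was 1 scaled to the total without mitochondrial genes (497). It was 0 with the tubule score (1) and 1 without both libraries that lie apart (237). Leaving out each rat in turn gave 9 to 13, 2 to 7, 0 to 1, 2 to 5 and 1 to 3 calls in the 5 comparisons, in the same order. Over all genes it gave 2177 to 3197, 419 to 1609, 0 to 397, 612 to 1798 and 221 to 612 calls. The causes were not tested.

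The labels do not say that rat numbers pair the rats. Deviations of same-numbered rats correlated at -0.159 to 0.135, so the numbers were not taken to pair them. With the replicate block 3 members were called with salt in null rats (beside 814 of all genes) and 1 in the interaction (Slc7a12, beside 275). In the other comparisons 9, 0 and 3 were called (beside 2618, 132 and 1276). Counts limit low members most: Slc1a2 had 185 reads and Slc38a5 had 130 over all libraries.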

Other observations

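Among the members under 50 normalized counts on average, the interaction was large beside its error in Slc7a15 and Slc38a5, though neither passed. Slc7a15, a light chain, averaged 28.5 ± 5.05 in SS low salt, 16.4 ± 11.1 in SS high salt, 15.3 ± 9.79 in null low salt and 25.0 ± 6.92 in null high salt, with an interaction of 1.92 ± 0.64 (log2, adjusted p = 0.11). Slc38a5, a glutamine carrier, averaged 2.01 ± 1.4, 9.89 ± 6.06, 7.41 ± 4.01 and 5.08 ± 5.59 in the same order, with an interaction of -2.67 ± 0.99 (adjusted p = 0.16). Both were named after their values were seen.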
